A study of Mus musculus with 2 samples.

Results

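The genes described here are Wif1 and 9 further genes of the Wnt pathway, which are Wnt2, Wnt4, Wnt5a, Wnt11, Sfrp1, Dkk2, Dkk3, Axin2 and Lef1. They are 10 of the 27998 genes counted in single-cell RNA sequencing of mouse lung. Wif1 was chosen by its lower level in endothelial cells (ECs) after hyperoxia, as measured in these counts, and the other members were taken by name from the same pathway with earlier results of these data known. The endothelial difference of Wif1 is therefore a description of what chose it.

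Wnt proteins are secreted ligands that bind Frizzled receptors and the co-receptors Lrp5 and Lrp6. In the canonical branch this keeps β-catenin from being degraded, so that it can act with TCF and LEF factors on target genes such as Axin2. Secreted inhibitors hold the ligands back outside the cell (Wif1 and Sfrp1) or bind the co-receptors (the Dickkopf family), and in the developing lung fibroblasts, myofibroblasts and pericytes exchange such signals with epithelium and vessels.

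C57BL/6 mice (C57BL/6J in the study's methods) breathed either room air with 21% oxygen or a hyperoxic atmosphere with 80% oxygen between birth and postnatal day 14, as a model of bronchopulmonary dysplasia, a lung disease of preterm infants. Lung cells of 8 mice were pooled into 1 library for each group, with no genetic change in either. The 2 libraries held 4234 and 13223 barcodes with 39593888 and 111934936 UMIs (unique molecular identifiers, each a captured transcript), in room air and hyperoxia respectively. With 1 library per group there is no biological replicate, no test was possible, and all intervals given are 95% intervals that cover counting error only.

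After filters and doublet removal 3680 room air and 10472 hyperoxia cells remained, with medians of 8070 and 7232 UMIs. Of the barcodes deposited, 17 occurred in both libraries, and 12 of these were kept in both. Cell names were rebuilt from the counts by marker genes and are written as "-like". ECs numbered 1035 in room air and 2544 in hyperoxia, and stromal-like cells 844 and 2602. Several classes were split by library into separate sub-clusters. Those in which 1 library supplied 90% of the cells or more held 100% of the gCap-like and of the pericyte-like cells of both libraries. Of the alveolar type 2 (AT2)-like cells they held 6.17% in room air and 91.2% in hyperoxia, and of the aCap-like cells 73.8% and 78.9%. They held 81.0% and 86.1% of the Tcf21 fibroblast-like cells and 63.7% and 57.4% of the myofibroblast-like cells. Artery-like, smooth muscle-like, adventitial fibroblast-like and T-like cells had no such cluster.

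To place the genes, the sequences upstream of 4 of them are shown, namely Wif1, Axin2 and Dkk2, members that were past 2-fold in an endothelial class and had an entry, and Wnt11, the 1 member with a match to the TCF/LEF motif. They were taken from RefSeq promoters (GRCm38.p6, plus strand of the build), where 7 of the 10 members had an entry. Wif1 lies on chromosome 10 from 121033960 to 121100650, Axin2 on chromosome 11 from 108920349 to 108950783, Dkk2 on chromosome 3 from 132085292 to 132180304 and Wnt11 on chromosome 7 from 98835112 to 98855195, all on the plus strand of GRCm38. The stretches end at the base before each gene. The motif of TCF/LEF factors, CTTTG with any pair of A or T after it, was searched on both strands in the 250 bases before each start, and capitals mark the match, which lies on the minus strand.
Wif1, chr10:121033754-121033959: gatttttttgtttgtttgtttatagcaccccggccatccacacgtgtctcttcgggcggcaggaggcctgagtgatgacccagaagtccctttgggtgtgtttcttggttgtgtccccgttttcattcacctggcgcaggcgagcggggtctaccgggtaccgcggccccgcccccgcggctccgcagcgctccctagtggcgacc
Axin2, chr11:108920099-108920348: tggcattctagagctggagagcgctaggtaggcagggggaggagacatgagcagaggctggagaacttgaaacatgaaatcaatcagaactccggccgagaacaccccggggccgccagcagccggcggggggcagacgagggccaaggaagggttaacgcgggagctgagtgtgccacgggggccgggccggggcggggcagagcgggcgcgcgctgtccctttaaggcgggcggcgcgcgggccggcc
Dkk2, chr3:132085042-132085291: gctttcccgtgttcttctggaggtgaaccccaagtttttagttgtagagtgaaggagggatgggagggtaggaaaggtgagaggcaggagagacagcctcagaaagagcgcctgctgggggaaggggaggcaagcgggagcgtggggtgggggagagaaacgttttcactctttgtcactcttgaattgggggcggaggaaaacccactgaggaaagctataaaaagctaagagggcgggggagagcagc
Wnt11, chr7:98834862-98835111: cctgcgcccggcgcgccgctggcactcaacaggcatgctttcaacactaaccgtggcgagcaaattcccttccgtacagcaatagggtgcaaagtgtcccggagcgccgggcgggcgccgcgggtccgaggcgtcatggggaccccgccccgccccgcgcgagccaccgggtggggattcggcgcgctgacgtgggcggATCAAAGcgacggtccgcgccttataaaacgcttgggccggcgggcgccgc
Such a match occurred in 14.9% of 27025 promoters of the same length, so 1 member of 7 with a match says little about the group. The GC content of the 250 bases searched was 62.8% for Wif1, 69.2% for Axin2, 55.6% for Dkk2 and 70.8% for Wnt11. For Wif1 only 206 of these bases are shown.

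Levels below are counts scaled to 1e6 UMIs (CPM), the UMIs of a gene summed over the cells of a class and divided by all UMIs of that class. Since 1 UMI stands for 1 captured transcript end, whatever the transcript's length, CPM can be set side by side between genes. Ratios are hyperoxia over room air, and a difference of at least 2-fold at a mean of at least 10 CPM is called past 2-fold, which is a rule of size and not a test.

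**Figure D1:**
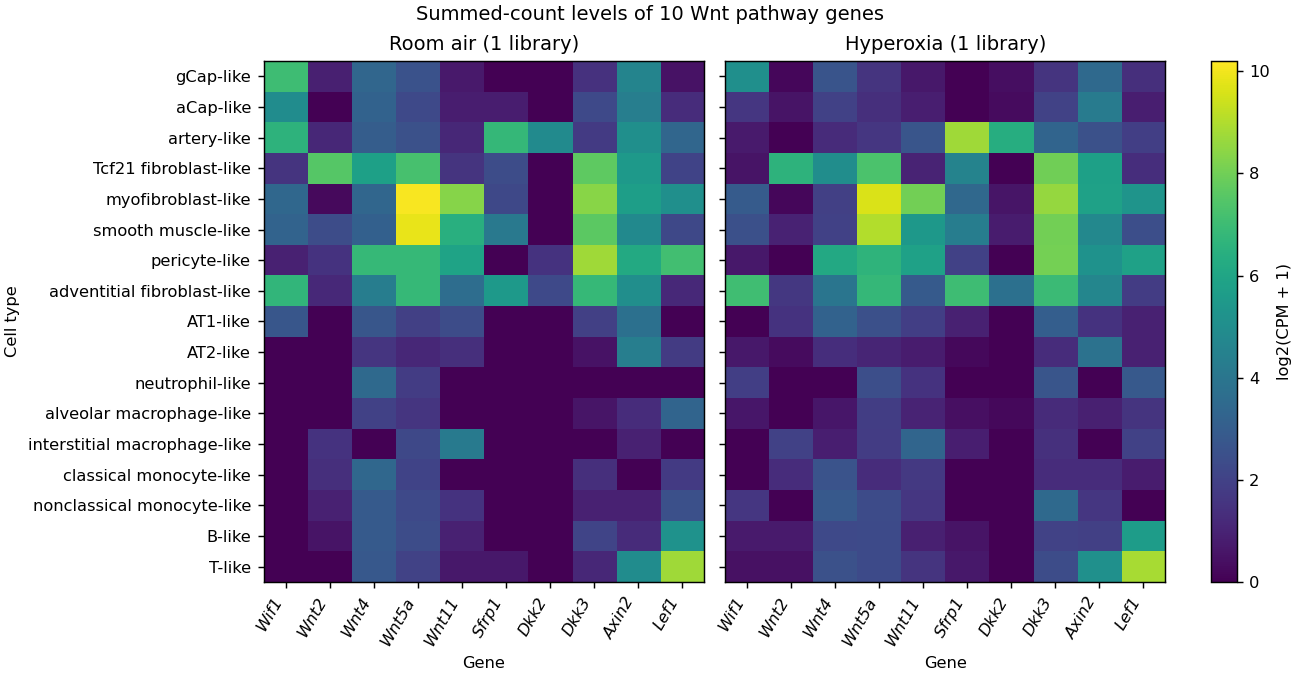
Levels of the 10 genes as log2(CPM + 1), in colour, by cell type (rows) and gene (columns), in the room air library (left) and the hyperoxia library (right). Wif1 stood out in gCap-like and adventitial fibroblast-like cells, and in artery-like cells in room air only. This artery-like value came from cells that a coarser clustering placed elsewhere. Wnt5a stood out in myofibroblast-like and smooth muscle-like cells, and Lef1 in T-like and pericyte-like cells.

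Wif1, a secreted protein that binds Wnt ligands, was mainly an endothelial gene in room air. ECs held 788 of its 1047 UMIs there, which is 95.2 CPM (88.7 to 102). In hyperoxia ECs held 274 of 748 UMIs, which is 13.6 CPM (12.0 to 15.3), a ratio of 0.143 (0.124 to 0.164). Over all cells the level was 28.7 CPM in room air against 8.53 CPM in hyperoxia. At a mean of at least 10 CPM in ECs, 2.92% of 8416 genes were past 2-fold lower and 1.87% past 2-fold higher. Wif1 was 30th in the order of decreases among these genes, between the chemokine Ccl21a and Nav2. Among the 3687 genes with at least 50 CPM it was the third, after Top2a and Ccl21a and before Cd74. Most of the genes ahead of it at the lower limit, such as Hist1h2ap, Cenpf and Mki67, are known from dividing cells and were named here after their values had been seen.

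Within ECs, Wif1 was highest in gCap-like cells, the general capillary cells of the alveolus. There it stood at 129 CPM in room air (603 UMIs in 591 cells) against 33.2 CPM in hyperoxia (229 UMIs in 812 cells), a ratio of 0.257 (0.219 to 0.299). In aCap-like cells, the aerocytes that line the gas-exchange surface, it was 29.7 CPM (40 UMIs) in room air and 2.09 CPM (18 UMIs) in hyperoxia, a ratio of 0.0702 (0.0379 to 0.125). Summed over each class, both capillary classes were thus lower in the hyperoxia library, and the counting intervals of the libraries did not overlap. The 40 room air UMIs of aCap-like cells lay in 17 of 160 cells, with up to 11 in 1 cell. No Wif1 UMI was found in the 34 room air and 114 hyperoxia vein-like cells, nor in the 14 and 30 lymphatic-like cells.

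Since the gCap-like cells of the libraries lay in separate sub-clusters, the few cells of each library in the other's sub-cluster were read as well. In the sub-cluster made mostly of room air cells, Wif1 was 131 CPM in 577 room air cells (121 to 142) and 52.6 CPM in 30 hyperoxia cells (25.2 to 96.7). In the sub-cluster made mostly of hyperoxia cells it was 32.6 CPM in 782 hyperoxia cells (28.5 to 37.3) and 41.9 CPM in 14 room air cells (11.4 to 107), the last resting on 4 UMIs. The difference between the libraries was thus seen in the first sub-cluster, while in the second the intervals overlapped.

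The artery-like class held 82 Wif1 UMIs in 94 room air cells (96.5 CPM) and 1 UMI in 152 hyperoxia cells (0.680 CPM), a ratio of 0.00704 whose interval ran from 0.000176 to 0.0403. These UMIs came from a part of the class that another clustering placed elsewhere. At a coarser resolution of 0.5, 40 room air and 144 hyperoxia cells of the class were still called artery-like, and none of them had a Wif1 UMI. The other 54 room air cells held all 82 Wif1 UMIs, or 173 CPM (138 to 215), and the other 8 hyperoxia cells held the single UMI. Those 54 cells had 1161 CPM of the capillary marker Gpihbp1 and 42.3 CPM of the artery marker Bmx, against 55.8 and 335 CPM in the 40 cells. The artery markers Mgp (67.7 and 5423 CPM), Fbln2 (76.1 and 850 CPM) and Gja5 (233 and 635 CPM) were also lower in the 54. Gja4 (459 and 627 CPM) and Cxcl12 (3542 and 5979 CPM) differed less, and Efnb2 (2032 and 1639 CPM) was higher in the 54. Their profile was thus a mixture of artery and capillary markers. Wif1 was therefore not detected in the cells called artery-like by both clusterings in either library.

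**Figure D2:**
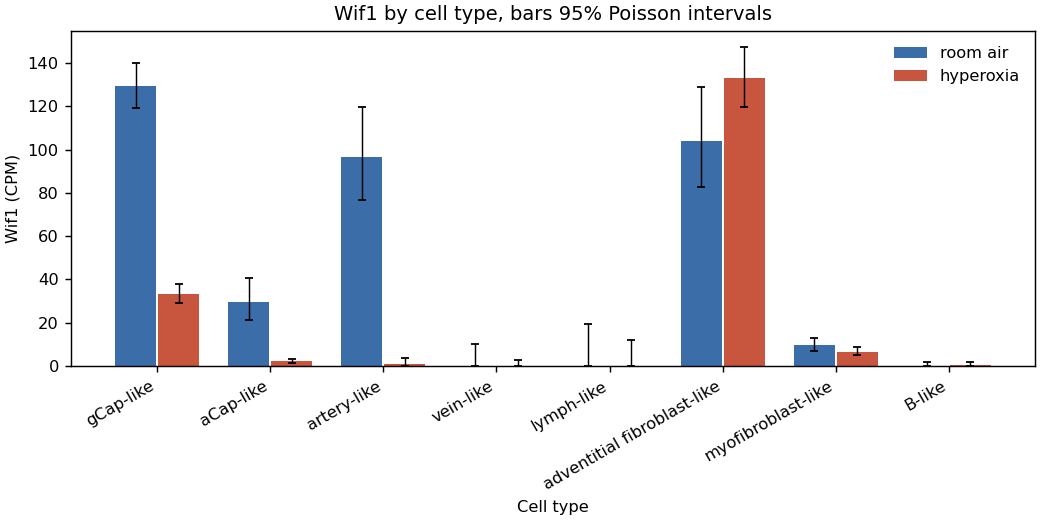
Wif1 in CPM (vertical axis) by cell type, with room air in blue and hyperoxia in red, bars from 0 and error bars as exact 95% Poisson intervals. The gCap-like, aCap-like and artery-like bars are lower in hyperoxia, while the adventitial fibroblast-like bars are 104 and 133 CPM. The artery-like bar of room air comes from cells that a coarser clustering placed elsewhere.

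The share of ECs with at least 1 Wif1 UMI was 30.5% for room air and 6.45% for hyperoxia. After every cell had been thinned to 2000 UMIs it was 16.4% (13.98 to 18.9) of 893 cells and 2.01% (1.46 to 2.70) of 2137 cells, with 142 and 407 shallower cells left out. The thinned share of aCap-like cells was 5 of 128 cells in room air and 0 of 926 cells in hyperoxia. Thinned to 1000 UMIs it was 0 of 146 and 2 of 1045. In B-like cells, which should lack Wif1, the share thinned to 2000 UMIs was 0 of 376 cells in room air and 0.0829% of 1207 cells in hyperoxia. The median depth was 7231 and 7994 UMIs in ECs, and the endothelial shares lay above the B-like ones in both libraries.

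The makeup of the ECs also differed between the libraries. gCap-like cells were 57.1% of ECs in room air and 31.9% in hyperoxia, while aCap-like cells were 15.5% and 44.9%. With the levels of hyperoxia and the makeup of room air, endothelial Wif1 would be 21.1 CPM, and with the levels of room air and the makeup of hyperoxia 69.1 CPM, between the 95.2 and 13.6 CPM observed. In sums over a class, fewer cells of a type and less RNA per cell cannot be told apart. Among ECs with no UMI of 6 stromal genes, 293 in room air and 587 in hyperoxia, Wif1 was 111 and 16.3 CPM, a log2 ratio of -2.78 against -2.81 in all ECs.

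Outside the endothelium Wif1 was not lower in the sum over all stromal-like cells. Stromal-like cells had 12.9 CPM in room air against 15.2 CPM in hyperoxia, a ratio of 1.18 (0.976 to 1.43), and the log2 ratio of 0.24 became -0.33 with double doublet removal. Its main stromal source was the adventitial fibroblast-like class, cells of the sheath around vessels and airways, with 82 UMIs in 40 room air cells (104 CPM) and 369 UMIs in 209 hyperoxia cells (133 CPM). Of the 82 UMIs, 34 came from 1 cell, and the ratio was 1.28 (1.005 to 1.65). Its log2 value of 0.36 became -0.09 with double doublet removal and -0.08 as a mean of CPM over cells. This class was 4.74% of stromal-like cells in room air and 8.03% in hyperoxia. Other stromal classes were under 10 CPM and lower in hyperoxia. Myofibroblast-like cells had 9.51 and 6.56 CPM and smooth muscle-like cells 8.45 and 4.65 CPM, with ratio intervals that included 1. Tcf21 fibroblast-like cells had 1.90 and 0.467 CPM, from 6 UMIs in each library. The part of makeup in the stromal sum was not tested. In epithelial-like cells Wif1 had 110 UMIs in room air and 14 in hyperoxia, or 21.1 and 1.01 CPM. Of the 110, 104 lay in 35 club-like cells, the secretory cells of the airway. The 58 club-like cells of hyperoxia held only 2, and the depth of club-like cells differed widely, with medians of 22090 and 1862 UMIs.

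The genes whose pattern over 16 cell types and 2 libraries was most like that of Wif1 were found by Pearson's r of log2(CPM + 10) over these 32 values, among 7759 genes. They were Prdm8 (r = 0.90), the receptor tyrosine kinase Kit (0.90), the apelin receptor Aplnr (0.88), Grrp1 (0.88) and Gna14 (0.87). The points share libraries and depth and include the endothelial values that chose Wif1, so r is a description. They also include the artery-like room air value, which came from the 54 cells that the coarser clustering placed elsewhere. In those cells Kit was 271 CPM and Aplnr 169 CPM, against 47.8 and 55.8 CPM in the other 40. Kit was 518 CPM in gCap-like cells of room air and 252 CPM in hyperoxia, and Aplnr was 326 and 119 CPM. Both are among the markers that named the gCap-like class.

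Sfrp1, a secreted protein that binds Wnt ligands through a Frizzled-like domain, was higher in hyperoxia in ECs and stroma. In ECs it was 11.4 CPM (94 UMIs) in room air and 31.5 CPM (635 UMIs) in hyperoxia, and nearly all of these UMIs were in the artery-like class. When doublet removal was doubled the endothelial log2 ratio turned from 1.47 to -0.39. Artery-like cells had 93 UMIs in room air (109.5 CPM) and 629 in hyperoxia (427 CPM), a ratio of 3.90 (3.14 to 4.91), with up to 30 and 77 UMIs in 1 cell. In the cells called artery-like by both clusterings the values were 247 CPM (199 to 303) in 40 room air cells and 449 CPM (415 to 485) in 144 hyperoxia cells. The 54 room air cells that held the Wif1 UMIs of the class had no Sfrp1 UMI, so the ratio in the class was larger than in the cells common to both clusterings.

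In stromal-like cells Sfrp1 was 8.87 CPM in room air against 30.3 CPM in hyperoxia, a ratio of 3.42 (2.78 to 4.23). Tcf21 fibroblast-like cells, the alveolar fibroblasts that include lipofibroblasts, had 13 UMIs in room air (4.12 CPM) and 293 in hyperoxia (22.8 CPM), a ratio of 5.53 (3.18 to 10.5). Adventitial fibroblast-like cells had 44.3 and 132 CPM, a ratio of 2.97 (2.095 to 4.33), with only 40 cells in room air. Smooth muscle-like cells had 16.3 and 19.1 CPM, a ratio of 1.17 (0.748 to 1.89), which became a log2 ratio of 1.07 with double doublet removal. Sfrp1 was thus higher in the fibroblast classes, and in smooth muscle the interval included 1.

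Dkk2, a ligand of the Lrp5 and Lrp6 co-receptors, had 24 of its 31 room air UMIs (28.3 CPM) and 118 of its 167 hyperoxia UMIs (80.2 CPM) in artery-like cells. Adventitial fibroblast-like cells held a further 3 and 35. The ratio was 2.84 (1.82 to 4.60) in the class. In the cells called artery-like by both clusterings Dkk2 was 63.7 CPM (40.8 to 94.8) and 84.2 CPM (69.7 to 101), and these intervals overlapped. The summed level of 8 stromal marker genes in artery-like cells was 352 CPM in room air, with 1 of the 8 at 0, and 1018 CPM in hyperoxia, with none at 0. The part of such RNA in the higher Sfrp1 and Dkk2 was not tested.

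Dkk3, a divergent Dickkopf family member, was spread over the stromal classes. Stromal-like cells had 270 CPM in room air against 279 CPM in hyperoxia, a ratio of 1.04 (0.994 to 1.08). It was highest in pericyte-like cells in room air, the cells that wrap capillaries, at 423 CPM (386 to 463), and lower there in hyperoxia at 266 CPM (242 to 292). In myofibroblast-like cells it was 330 and 388 CPM, and in Tcf21 fibroblast-like cells 203 and 254 CPM. Dkk3 thus differed by less than 2-fold in each class, downward in pericyte-like cells and upward in the others named.

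Wnt5a, a ligand best known for signalling without β-catenin, had the highest level of the 4 ligands. Myofibroblast-like cells, which lay down elastin at the tips of the growing septa, had 1102 CPM in room air (5215 UMIs in 342 cells) against 777 CPM in hyperoxia (6166 UMIs in 615 cells), a ratio of 0.705 (0.679 to 0.732). Smooth muscle-like cells had 925 and 518 CPM, a ratio of 0.560 (0.524 to 0.599). The log2 ratio there ranged from -1.22 at resolution 2 to -0.49 with double doublet removal. Tcf21 fibroblast-like cells had 151 and 158 CPM, pericyte-like cells 114 and 99.1 CPM and adventitial fibroblast-like cells 113 and 110 CPM, each with a ratio interval that included 1. With stricter cell filters the pericyte-like log2 ratio was -0.80 in place of -0.20. The lower level in hyperoxia was therefore seen in the contractile classes that made most of it. In ECs the 131 room air UMIs included 80 from 1 cell, so the 15.8 and 2.09 CPM there rest largely on that cell.

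Wnt11, also a ligand mostly linked to signalling without β-catenin, followed the same cells. Myofibroblast-like cells had 325 and 259 CPM, in room air and hyperoxia, a ratio of 0.796 (0.745 to 0.851). Smooth muscle-like cells had 84.5 CPM (140 UMIs) and 41.9 CPM (171 UMIs), a ratio of 0.496 (0.394 to 0.624). The log2 ratio there ranged from -1.08 with ratios centred on the median of all genes to -0.52 at resolution 2. Pericyte-like cells had 58.8 and 55.4 CPM, with overlapping intervals.

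Wnt2, a canonical ligand of the early lung mesenchyme, was almost wholly in Tcf21 fibroblast-like cells. They held 568 of its 606 UMIs in room air (180 CPM) and 1214 of 1268 in hyperoxia (94.4 CPM), a ratio of 0.525 (0.474 to 0.581). In the whole stroma the ratio was nearer to 1, at 0.826 (0.748 to 0.913), with 50.4 and 41.6 CPM. Tcf21 fibroblast-like cells made up 26.2% of stromal-like cells in room air and 46.6% in hyperoxia. With the levels of hyperoxia and the makeup of room air, stromal Wnt2 would be 26.3 CPM.

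Wnt4, a ligand of pericytes and fibroblasts here, was lower in hyperoxia in both of these classes. Pericyte-like cells had 114 CPM (128 UMIs) in room air and 70.8 CPM (120 UMIs) in hyperoxia, a ratio of 0.620 (0.479 to 0.802). Tcf21 fibroblast-like cells had 53.9 and 31.3 CPM, a ratio of 0.582 (0.485 to 0.700). None of these reached 2-fold. In epithelial-like cells Wnt4 was 21.7 and 3.1 CPM, and 101 of the 113 room air UMIs lay in the 35 club-like cells. Within club-like cells it was 54.6 CPM in room air against 81.9 CPM from 10 UMIs (39.3 to 151) in hyperoxia. Club-like cells were 35 of 296 and 58 of 1227 epithelial-like cells and also differed in depth, as given for Wif1, and the part of either in the epithelial difference was not tested.

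The makeup of the stroma bears on the stromal sums of the other ligands too. Myofibroblast-like cells were 40.5% of stromal-like cells in room air and 23.6% in hyperoxia. Wnt5a over all stromal-like cells was 647 and 367 CPM, and would be 456 CPM with the levels of hyperoxia and the makeup of room air. Wnt11 was 153 and 79.8 CPM, and would be 119 CPM in the same way. The values within classes given above do not carry this shift.

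**Figure D3:**
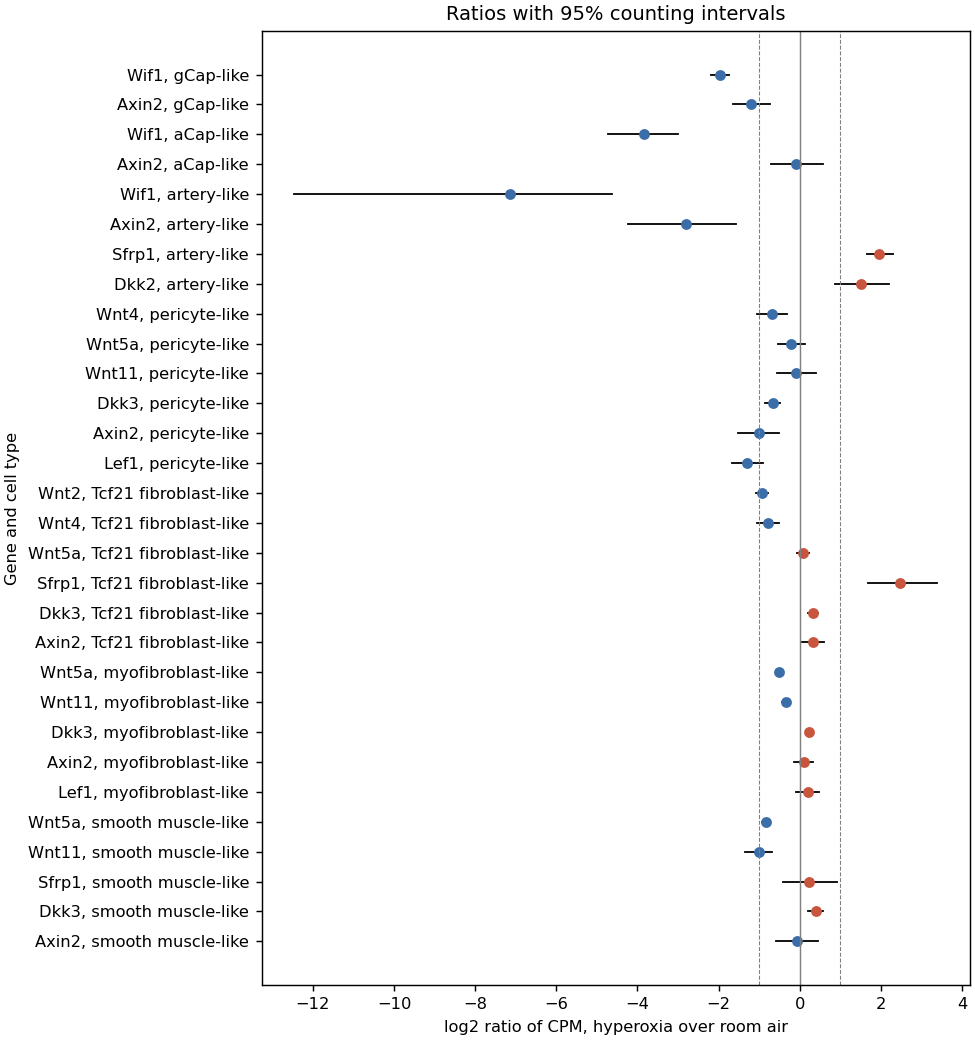
Log2 ratio of CPM, hyperoxia over room air (horizontal axis), for members with a mean of at least 10 CPM in 7 vascular and stromal cell types (rows), with lines as 95% counting intervals and dashed lines at 2-fold. Points in red are above 0 and points in blue below 0. The lowest point is Wif1 in artery-like cells, whose room air value came from cells that a coarser clustering placed elsewhere. Axin2 lies below 2-fold in gCap-like, artery-like and pericyte-like cells and close to 0 in aCap-like cells. Sfrp1 lies highest in artery-like and Tcf21 fibroblast-like cells.

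Axin2, a scaffold of the β-catenin destruction complex and the usual readout of canonical signalling, differed between endothelial classes. In gCap-like cells it was 23.2 CPM (108 UMIs) in room air and 10.1 CPM (70 UMIs) in hyperoxia, a ratio of 0.438 (0.319 to 0.597). In artery-like cells it was 33.0 CPM (28 UMIs) and 4.76 CPM (7 UMIs), a ratio of 0.144 (0.0532 to 0.338). In aCap-like cells it was 19.3 and 18.1 CPM, a ratio of 0.936 (0.615 to 1.48). The interval of the aCap-like ratio did not overlap those of the other classes. In the mostly room air gCap-like sub-cluster, Axin2 was 23.2 CPM (19.0 to 28.1) for room air and 0 (0 to 19.4) for hyperoxia. In the mostly hyperoxia one it was 20.95 CPM (2.54 to 75.7) for room air and 10.4 CPM (8.13 to 13.2) for hyperoxia. These intervals overlapped in both, with 30 and 14 cells on the small side. The cells called artery-like by both clusterings had 34.5 CPM (18.4 to 59.0) and 4.28 CPM (1.57 to 9.32). The artery-like log2 ratio of -2.79 ranged from -3.73 with double doublet removal to -1.99 as a mean of CPM over cells.

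In the stroma Axin2 was 47.1 and 46.8 CPM, a ratio of 0.993 (0.899 to 1.10). Pericyte-like cells were the exception, with 72.2 CPM (81 UMIs) in room air and 35.97 CPM (61 UMIs) in hyperoxia, a ratio of 0.498 (0.351 to 0.703). The log2 ratio there ranged from -1.065 as a mean of CPM over cells to -0.83 with double doublet removal. Tcf21 fibroblast-like cells had 43.1 and 54.0 CPM, and myofibroblast-like cells 52.2 and 55.7 CPM. AT2-like cells, the surfactant-making epithelium, had 19.4 and 13.4 CPM, a ratio of 0.688 (0.498 to 0.968).

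Lef1, a DNA-binding partner of β-catenin that is also a T cell factor, was highest in T-like cells, with 423 CPM in room air against 470 CPM in hyperoxia. In pericyte-like cells it was 137 CPM (154 UMIs in 110 cells) and 56.0 CPM (95 UMIs in 172 cells), a ratio of 0.408 (0.313 to 0.530). In myofibroblast-like cells it was 32.8 and 37.6 CPM, and in B-like cells 35.9 and 48.2 CPM. Over all stromal-like cells Lef1 was 28.4 and 14.9 CPM, and would be 22.2 CPM with the levels of hyperoxia and the makeup of room air. Pericyte-like cells were 13.03% of stromal-like cells in room air and 6.61% in hyperoxia. Since Lef1 is also a lymphocyte gene, the summed level of 8 lymphocyte markers in pericyte-like cells is given, 123 CPM in room air with none at 0, and 23.6 CPM in hyperoxia with 2 at 0. Its part in the Lef1 value was not tested.

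The pericyte-like cells of the libraries also lay in separate sub-clusters. In the sub-cluster made mostly of room air cells, Lef1 was 153 CPM in 98 room air cells (130 to 180) and 58.2 CPM in 4 hyperoxia cells (7.05 to 210), the last from 2 UMIs. In the other, it was 56.0 CPM in 168 hyperoxia cells (45.2 to 68.6) and 33.5 CPM in 12 room air cells (10.9 to 78.2). Axin2 in the first sub-cluster was 76.1 CPM (59.7 to 95.5) for room air and 58.2 CPM (7.05 to 210) for hyperoxia. In the second it was 46.9 CPM (18.9 to 96.7) for room air and 35.5 CPM (27.0 to 45.8) for hyperoxia. For both genes the intervals of the libraries overlapped within both sub-clusters, with at most 12 cells on the small side.

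Over 16 cell types with at least 50 cells in both libraries there were 35 pairs of a member and a type at a mean of at least 10 CPM. Of these 3 were past 2-fold higher in hyperoxia and 8 past 2-fold lower, against 2.99% and 3.14% of 123315 pairs of any gene and type. The 8 include 3 pairs of Wif1 in endothelial classes, which belong to the difference that chose it, and without Wif1 there were 32 pairs with 3 higher and 5 lower. The artery-like pair of Wif1 came from cells that the coarser clustering placed elsewhere. The higher ones were Sfrp1 and Dkk2 in artery-like cells, where 5.88% of all genes at that level were past 2-fold higher, and Sfrp1 in Tcf21 fibroblast-like cells, where 2.44% were higher and 1.93% lower. The lower ones were Wif1 and Axin2 in gCap-like cells (background 2.4%), Wif1 in aCap-like cells (2.77%, and 2.11% higher), Wif1 and Axin2 in artery-like cells (5.64%), Axin2 and Lef1 in pericyte-like cells (3.58%) and Wnt11 in smooth muscle-like cells (2.66%, and 2.63% higher). Wnt11 in smooth muscle-like cells and Axin2 in pericyte-like cells, with ratios of 0.496 and 0.498, were the pairs just inside the limit, and Wnt2 in Tcf21 fibroblast-like cells, at 0.525, was the nearest outside it. The Wnt11 pair fell outside the limit at resolution 2, and the Axin2 pair with double doublet removal. No pair was past 2-fold in myofibroblast-like cells, where 5 members reached the level and 1.91% of genes were higher and 1.47% lower, nor in the leukocyte classes, where 4 pairs did.

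A list of 89 Wnt pathway genes, 88 of them in the files, gives the wider pathway. In ECs 32 reached a mean of 10 CPM, of which 3 were past 2-fold higher and 3 lower (background 1.87% and 2.92%). The 3 lower ones include Wif1, which was chosen by this difference. The median log2 ratio of the 32 genes was -0.14 against 0.00 over all 8416 genes. Higher were Sfrp1 and the genes Nkd2, an inhibitor of Dishevelled, at 5.32 and 15.3 CPM, and Ccnd1, the cyclin D1 of the cell cycle and a known β-catenin target, at 367 and 1029 CPM. Lower were Wif1, the β-catenin cofactor Bcl9 at 19.7 and 9.63 CPM, and Tcf7l2, a TCF factor, at 92.3 and 46.0 CPM. No receptor or co-receptor among 11 at this level was past 2-fold. The β-catenin gene Ctnnb1 was 587 and 660 CPM, Fzd4 296 and 288 CPM, its partner Tspan12 152 and 193 CPM, Lrp5 54.0 and 49.9 CPM and Lrp6 146 and 102 CPM. The feedback inhibitor Nkd1 was 184 and 291 CPM and Tcf7 39.6 and 32.9 CPM. Rspo3 was near the limit of detection in ECs at 1.57 and 1.04 CPM, and Notum had 1 and 5 UMIs.

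Genes of the canonical branch thus differed in both directions in ECs. In gCap-like cells, where 1.82% of all genes were past 2-fold higher, Axin2 and Tcf7l2 (89.9 and 43.8 CPM) were lower, while Ccnd1 (355 and 893 CPM) and Nkd2 (5.37 and 24.1 CPM) were higher. These gCap-like values of the other genes, and those by class that follow, were chosen after they had been seen.

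In stromal-like cells 51 list genes reached the level. The background was 1.59% higher and 1.2% lower, and 3 list genes were higher and 0 lower past 2-fold, with a median log2 ratio of 0.05 against 0.00 over all genes. The higher ones were Sfrp1, the co-receptor inhibitor Sost at 5.65 and 23.4 CPM, and Ccnd1 at 80.7 and 167 CPM. Sost was mainly in smooth muscle-like cells, at 36.8 and 167 CPM, a ratio of 4.54 (3.49 to 5.99). Ctnnb1 was 225 and 251 CPM, Lrp5 35.0 and 31.4 CPM, Lrp6 121 and 145 CPM, Fzd4 23.0 and 34.0 CPM, and Tspan12 17.5 and 19.2 CPM. Nkd1 was 76.5 and 56.4 CPM, Notum, an enzyme that removes the lipid from Wnt ligands, 12.5 and 21.3 CPM, Tcf7 40.0 and 25.7 CPM, and Rspo3 2.61 and 3.43 CPM.

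In pericyte-like cells 41 list genes reached the level, with 7 past 2-fold lower and 1 higher (background 3.58% and 3.98%), and a median log2 ratio of -0.26 against -0.02 over all genes. Besides Axin2 and Lef1 the lower ones were Tcf7 (90.9 and 43.6 CPM), the receptors Fzd2 (30.3 and 12.4 CPM) and Fzd7 (79.3 and 35.4 CPM), the Wnt5a receptor Ror1 (75.8 and 35.4 CPM) and the ligand cofactor Reck (272 and 122 CPM). The higher one was Ccnd1, at 38.3 and 294 CPM. Tcf7 is also a T cell gene, and the lymphocyte marker levels given for Lef1 hold for it too, with their part not tested. Within the sub-clusters, Tcf7 was 101 CPM (81.8 to 123) for room air against 116 CPM (31.7 to 298) for hyperoxia where most cells were of room air, and 26.8 CPM (7.31 to 68.7) against 42.1 CPM (32.9 to 53.2) in the other sub-cluster. The intervals overlapped in both, and neither value was lower in hyperoxia. In Tcf21 fibroblast-like cells 45 list genes reached the level, with 4 past 2-fold higher and 2 lower (background 2.44% and 1.93%). The higher ones were Sfrp1, Ccnd1 (20.9 and 52.9 CPM), Nkd2 (9.82 and 24.4 CPM) and the Wnt5a receptor Ror2 (15.9 and 32.4 CPM). The lower ones were Rspo2 (21.2 and 4.36 CPM) and Rspo4 (37.1 and 16.02 CPM), members of the R-spondin family, which enhances Wnt signals by sparing Frizzled receptors.

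In epithelial-like cells 34 list genes reached the level, with 0 past 2-fold higher and 4 lower (background 1.13% and 5.03%), which were Wif1, Wnt4, the ligand-processing enzyme Porcn at 18.6 and 3.89 CPM, and Tcf7l2 at 49.4 and 22.9 CPM. In myeloid-like cells 15 did, and Myc alone was past 2-fold higher, at 11.4 and 25.9 CPM, with none lower (background 1.37% higher and 2.38% lower). In lymphocyte-like cells 22 did, and Ccnd1 alone was higher, at 5.79 and 16.4 CPM, with none lower (background 0.762% and 0.328%).

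**Figure D4:**
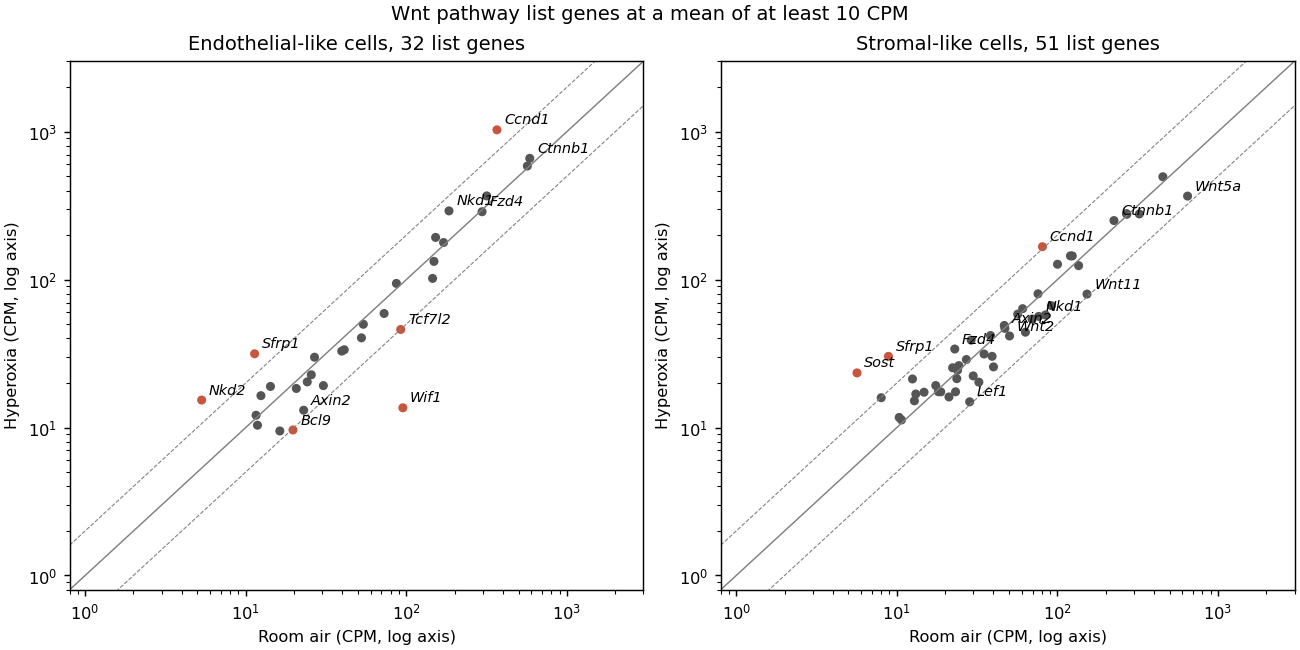
Levels in room air (horizontal, CPM, log axis) and hyperoxia (vertical, CPM, log axis) of the Wnt pathway list genes with a mean of at least 10 CPM, in endothelial-like (left, 32 genes) and stromal-like cells (right, 51 genes), with the line of equal level and dashed lines at 2-fold. Points past 2-fold are red. Wif1 lies farthest below the line in ECs, at 95.2 and 13.6 CPM, and Sost farthest above it in the stroma, at 5.65 and 23.4 CPM.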

How the data were processed

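Single-cell suspensions of perfused and digested lungs were sequenced with a 10x Genomics 3' kit, 1 library per group. The authors counted UMIs with Cell Ranger against mm10 and deposited raw counts per gene and barcode, with no normalization. The Cell Ranger version differs between sources, with 2.1.1 in the submitters' processing notes, 6.1.1 in the extract protocol and the study's methods, and software version 3.1.0 in the matrix headers. The kit is v2 in the labels and v3 in the study's methods.

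Analysis used scipy 1.17.1, numpy 2.4.6, pandas 2.3.3 and Python 3.11.15 on the deposited counts. Barcodes under 500 detected genes or over 20% mitochondrial UMIs were dropped, which removed 345 and 1026 barcodes for few genes and 80 and 486 for mitochondrial UMIs, in room air and hyperoxia. Doublets were ranked against simulated pairs and removed up to 0.8% per 1000 barcodes (129 and 1239 cells). Counts were log-normalised, and 2000 variable genes and 30 components were clustered with Leiden (leidenalg 0.10.2, igraph 0.11.9, scikit-learn 1.9.0) on 20 neighbours at resolution 1, first into lineages (32 clusters), then within each (67 sub-clusters, 10 unnamed with 1070 cells). Mitochondrial, sex-linked and Wnt pathway list genes did not enter the clustering. A cluster took a name from at least 3 raised markers and otherwise stayed unnamed, and this rule was changed once after clusters had been seen. Figures were drawn with matplotlib 3.10.9.

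UMIs were summed per class and library with exact Poisson intervals, ratios have exact conditional intervals and shares exact Clopper-Pearson intervals. The intervals were checked on simulated data. No test was made, as each group had 1 library. Besides the 10 members, the genes named are up to 5 list genes in each direction and lineage past 2-fold at a mean of at least 10 CPM, 9 pathway genes whatever their values, the 5 genes most like Wif1 and its neighbours in the order of endothelial ratios. Members and lists were chosen with earlier results of these data known. Alternatives changed the filters, doublets, resolution, joint clustering, scaling, level and fold limits, and thinning. The isolated-EC and other experiments of the study were not analysed here.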

Additional observations from a re-analysis of the deposited data

Results flagged for a closer look

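Summed over each lineage, Lef1 differed in direction between lineages. Its log2 ratio, hyperoxia over room air, was -0.93 in stromal-like cells, with 137 and 56.0 CPM in pericyte-like cells. It was 0.32 in lymphocyte-like cells, with 423 and 470 CPM in T-like cells, whose log2 ratio became -0.04 without doublet removal. The 2 ratios stand on opposite sides of 0 with counting intervals that exclude it, -1.14 to -0.72 and 0.22 to 0.43. The makeup of both lineages differed between the libraries. T-like cells were 245 of 744 lymphocyte-like cells in room air and 1038 of 2670 in hyperoxia. Stromal Lef1, at 28.4 and 14.9 CPM, would be 22.2 CPM with the levels of hyperoxia and the makeup of room air. Myofibroblast-like Lef1, given above, was not lower in hyperoxia. With 1 library in each group the difference between the lineages, and the part of makeup in it, was not tested.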

How the results depend on the processing

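The 53 member log2 ratios by class or lineage were recomputed under the alternatives, 524 values in all, of which 489 stayed within the counting interval of the reported value and 35 did not. The sign changed in 24 of them, belonging to 12 ratios, of which 1 was past 2-fold as reported. Endothelial Sfrp1 went to a log2 ratio of -0.39 with double the expected doublets removed, when 92 in place of 152 artery-like hyperoxia cells were left, with 152 in place of 629 Sfrp1 UMIs. In artery-like cells the log2 ratio of Sfrp1 was 1.97 as reported and 0.81 without doublet removal, 0.93 with double removal and 0.86 at resolution 0.5, and that of Dkk2 was 1.51 as reported and 0.35 without doublet removal and 0.40 at resolution 0.5. Endothelial Wif1 ranged from -2.89 to -2.65 and gCap-like Wif1 from -2.06 to -1.92. Wif1 in adventitial fibroblast-like cells ranged from -0.09 to 1.04. The count of member and type pairs past 2-fold fell to 1 higher and 5 lower without doublet removal and to 1 higher at resolution 0.5. It rose to 4 higher as a mean of CPM over cells and to 9 lower with each library clustered on its own.

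The difference in the share of ECs with Wif1, -14.3 percentage points at 2000 UMIs, was -24.1 unthinned, -7.75 at 1000 UMIs and -10.9 with cell limits of 1000 genes and 10% mitochondrial UMIs. Counts of list genes past 2-fold moved with the limits. The shares over all genes at these other limits are not given, so the counts show only how the list depends on the limits. With a limit of 1 UMI a ratio can rest on very few UMIs. With at least 1 UMI in both libraries they were 9 higher and 17 lower in ECs, 7 and 5 in stroma, 2 and 13 in epithelium, 7 and 7 in myeloid and 8 and 3 in lymphocyte-like cells. At a mean of at least 50 CPM they were 1 higher in ECs, 1 in stroma, 0 in myeloid and 0 in lymphocyte-like cells, and 0 lower in epithelium. At 1.5-fold they were 6 lower in ECs, 5 higher and 5 lower in stroma, 2 higher and 8 lower in epithelium, and 2 lower in myeloid cells. As a mean of CPM over cells they were 1 lower in ECs, 2 lower in stroma, and 0 higher and 1 lower in myeloid cells. With double doublet removal 1 was lower in myeloid cells. Leaving out the unnamed sub-clusters, chosen after seeing the data, moved none of the 53 ratios. The cause of these shifts was not tested.

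No paired analysis was possible because each group was 1 library. Depth limits the classes with few cells, above all the 40 adventitial fibroblast-like and 94 artery-like cells of room air.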
